A study of Dugesia japonica with 6 samples.

Results

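The 100 transcript contigs described here are those of the planarian Dugesia japonica whose control and adenosine dialdehyde (AdOx) libraries lay farthest apart in the downward direction. They were chosen by the measured values themselves. CPM (a contig's count over its library's total count, times 1000000) was put on a log2 scale after adding 0.5, contigs with a mean of at least 2 CPM over the 6 libraries were kept, and the kept contigs were ranked by the lowest control value minus the highest AdOx value, called the gap below. The filter kept 28064 of the 44723 contigs with a read in any library, and the members are the 100 contigs with the widest gaps. That every control library exceeds every AdOx library in a member follows from this choice and is given as a description.

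The libraries came from poly(A)-selected RNA of whole, intact animals, with 3 libraries from each group and 6 individuals behind each library. AdOx animals of about 1 cm lived in spring water that held 100 µM of the drug for 1 month, and control animals of the same size lived as long in water holding only the diluted hydrochloric acid in which the drug is dissolved. Both groups were starved before the start. The labels give no genotype or strain beyond the species, and whether each library came from a vessel of its own is not stated, so any p-value here measures only the spread between these libraries. Library totals ran from 15606794 to 20385026 counts, and each AdOx total (at most 16963553) was below each control total (at least 18167550). AdOx replicate 2 stood somewhat apart: over the kept contigs, the SD of its log2 values around the mean of the other libraries of its group was 0.27, against 0.19 to 0.22 for the other 5 libraries.

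AdOx blocks S-adenosylhomocysteine hydrolase, which breaks down the product left when a methyl group is passed from S-adenosylmethionine to DNA, RNA, protein or a small molecule. When that product builds up it slows many methyltransferases, so the enzyme sits upstream of most methylation in a cell. Planarians rebuild missing parts from dividing stem cells, the neoblasts, under positional signals such as the Wnt gradient along the head-to-tail axis, and the series asks what changes in animals that have adapted to the inhibitor. No file links the contig IDs to named genes, so no role can be given to any member. Members are called by their rank, and IDs are printed for ranks 1 and 2 only.

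One transcript stood far from the rest. Contig comp138201_c0_seq1, ranked 1, was read at 26.5, 23.0 and 14.5 CPM under AdOx (replicates 1, 2 and 3, the order used throughout) and at 229, 427 and 332 CPM in the controls. The groups are separated by more than their whole internal range: the lowest control library was 8.65 times the highest AdOx library. The means were 21.3 ± 6.20 CPM in AdOx and 329 ± 98.6 CPM in control (SD, n = 3), a 15.4-fold fall. Its gap of 3.09 log2 units was followed by 1.07 for the contig ranked 2. In whole animals, a loss of the cells that make a transcript and less of it in each cell cannot be told apart, here and in every member below.

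Contig comp105111_c0_seq1, ranked 2, was a far rarer transcript. It had 57, 44 and 68 counts in AdOx and 200, 168 and 163 in control, which is 3.36, 2.82 and 4.02 CPM against 9.81, 8.99 and 8.97 CPM. The control libraries were nearly level and the AdOx libraries lay at 3.40 ± 0.600 CPM (SD, n = 3), a 2.72-fold fall. The contig ranked 3 fell 2.83-fold, from 53.3, 69.5 and 77.8 CPM in control to 27.1, 27.0 and 16.8 CPM in AdOx. Here the libraries of each group were spread more widely, with control replicate 1 and AdOx replicate 3 at the low end.

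The next contigs showed falls of about the same size at very different abundances. Rank 4 had 5.72, 6.15 and 5.55 CPM in AdOx and 12.3, 11.7 and 13.0 CPM in control. Rank 5 had 3.18, 3.52 and 3.01 CPM in AdOx and 7.21, 6.80 and 6.94 CPM in control. Both more than doubled from AdOx to control, with ratios of means of 2.13 and 2.15, and the spread within each group was small beside that. Rank 6 was more abundant, at 63.3, 67.7 and 67.8 CPM in AdOx and 128, 119 and 131 CPM in control, a ratio of 1.90.

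The contigs ranked 7 and 9 belong to the same assembly component, a set of contigs that the assembler built from connected reads, and their counts may be split between them. Rank 7 had 9.26, 9.03 and 5.97 CPM in AdOx and 15.2, 20.9 and 22.2 CPM in control. Rank 9 had 6.37, 6.79 and 4.79 CPM in AdOx and 10.3, 14.4 and 16.0 CPM in control. In each of these contigs AdOx replicate 3 was the lowest AdOx library and control replicate 1 the lowest control library, the same order as in ranks 1 and 3. That order was seen in 9 of the 100 members, and in 6.54% of all contigs separated downward.

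The contigs ranked 8 and 10 were flat within each group. Rank 8 had 8.61, 8.33 and 8.69 CPM in AdOx and 14.2, 14.7 and 13.4 CPM in control. Rank 10 had 8.19, 8.59 and 8.33 CPM in AdOx and 14.6, 14.2 and 12.7 CPM in control. Their ratios of means were both 1.65.

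**Figure D1:**
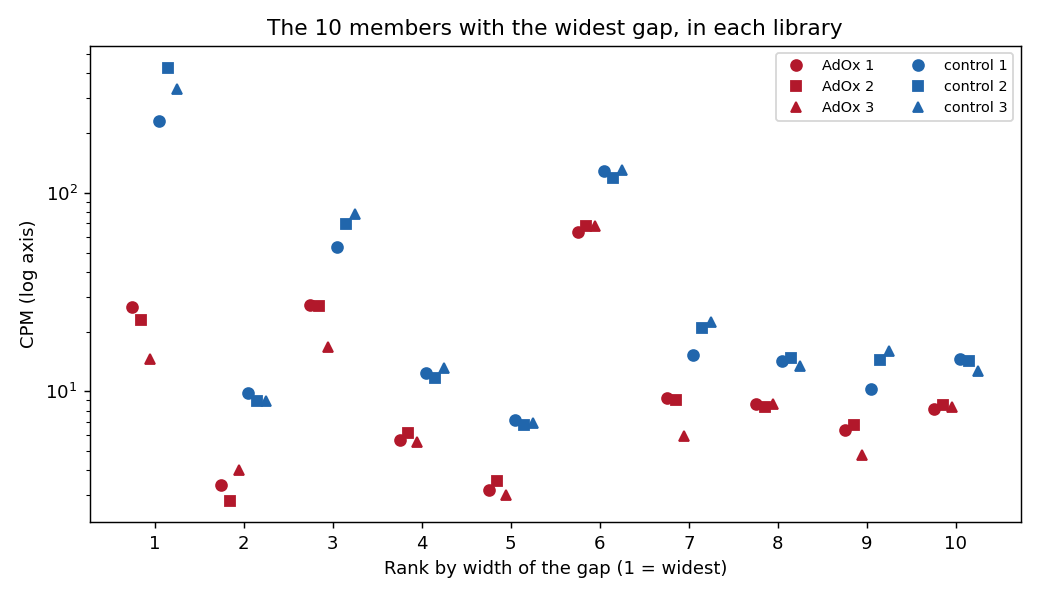
CPM (log axis) of the 10 members with the widest gap, by rank, with 1 point for each library (red AdOx, blue control; circle, square and triangle for replicates 1, 2 and 3). The contig ranked 1 goes from at most 26.5 CPM in AdOx to at least 229 CPM in control, while the gap of every other contig shown is 1.07 or less on the log2 scale.

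Beyond the leading contigs the falls were modest. Over the 100 members the ratio of the control mean to the AdOx mean ran from 1.27 to 15.4 with a median of 1.49, which is a median fall of 32.8%. The median log2 difference was -0.54 (-0.51 without AdOx replicate 2), against 0.02 over all kept contigs. The second largest ratio was 2.83. Only 8 members fell 2-fold or more in their means, and these 8 were all the kept contigs of that size, whatever their gap. At 1.5-fold or more there were 110 kept contigs, 48 of them members. The members together took 0.316%, 0.312% and 0.319% of all counts under AdOx and 0.465%, 0.504% and 0.502% in the controls. Rank 1 alone made up 17.6% of that summed difference of 1748 CPM, and the 5 members with the largest differences in CPM made up 50.8%.

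**Figure D2:**
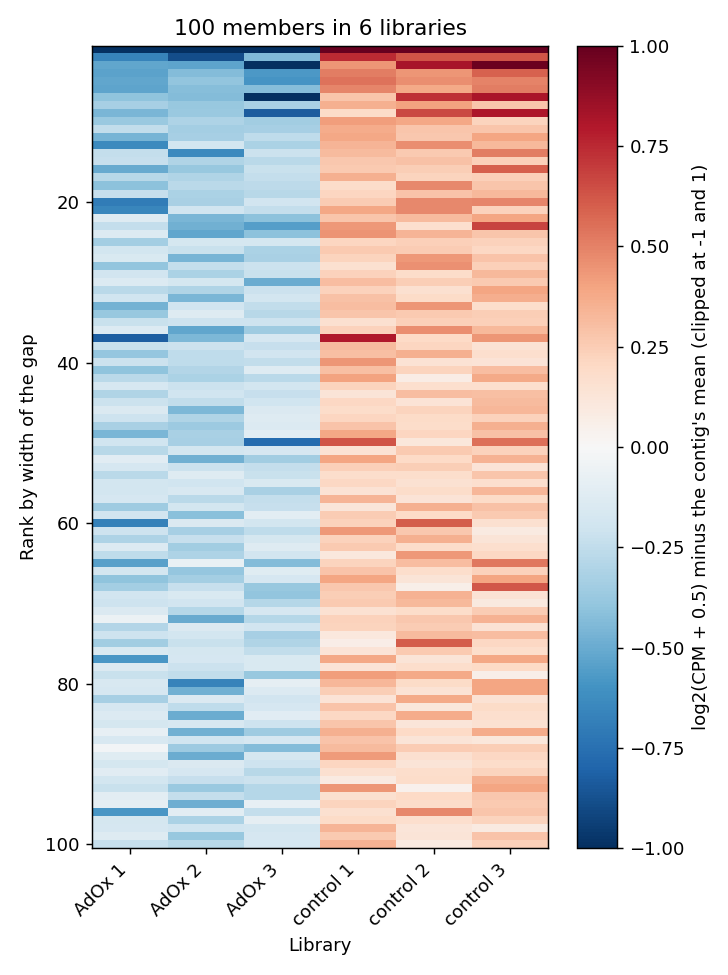
Each row is 1 of the 100 members in rank order and each column 1 library, coloured by log2(CPM + 0.5) minus the contig's mean over the 6 libraries and clipped at -1 and 1. The contrast between the columns fades down the ranks, from a gap of 3.09 to 0.26; the split into blue and red columns is set by the choice of the members.

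Separation in itself was common. In this direction 1589 of the 28064 kept contigs, or 5.66%, had every control library above every AdOx library, and the members are the 6.29% of these with the widest gaps. In the mirror direction 2927 contigs, or 10.4%, had every AdOx library above every control library. This imbalance depended on the scaling: with TMM factors of edgeR (scaling factors meant to make most contigs level) in place of library totals, the counts were 2089 downward and 2187 upward, and all 100 members were still separated, with a smallest gap of 0.18. With fewer libraries to clear, the downward count rose to 2654 or 3221 when AdOx replicate 1 or 3 was left out and to 3757 or 2595 when control replicate 2 or 3 was. The gap was 0.53 at rank 10, 0.31 at rank 50 and 0.26 at rank 100, where the mirror rule gave 0.58, 0.35 and 0.28.

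No break in the values marks the edge of the set. Rank 100, the last member, had 23.4, 22.7 and 24.4 CPM in AdOx and 35.3, 29.3 and 32.6 CPM in control. The nearest contig outside had 1.95, 1.79 and 1.65 CPM in AdOx and 2.45, 2.94 and 2.42 CPM in control. Their gaps were 0.2574 and 0.2569. Rank 98 was at 5.25, 5.13 and 5.20 CPM in AdOx and 7.70, 6.53 and 6.39 CPM in control, and rank 99 at 28.2, 23.7 and 27.6 CPM and 37.3, 33.9 and 37.8 CPM. The next 2 contigs outside had ratios of means of 1.27 and 1.49, inside the range of the members.

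The members were spread widely in abundance below the top of the range. Their mean CPM ran from 2.01 to 554 with a median of 9.38, against a median of 8.25 over all kept contigs. By class, 28 members were under 5 CPM, 40 between 5 and 20, 20 between 20 and 100, and 12 above 100, where the kept contigs had 32.9%, 41.1%, 20.7% and 5.38%. None of the 100 most abundant contigs of the series was a member, which says little with 100 members among 28064 kept contigs. Every member had reads in all 6 libraries, with from 14 to 13002 counts in a library, so none was at 0 in any AdOx library.

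The 3 most abundant members were ranked 58, 92 and 19. Rank 58 had 424, 480 and 465 CPM in AdOx and 592, 696 and 666 CPM in control. Rank 92 had 316, 305 and 309 CPM in AdOx and 382, 407 and 459 CPM in control. Rank 19 had 283, 267 and 275 CPM in AdOx and 386, 406 and 417 CPM in control. These falls were small (ratios of 1.43, 1.34 and 1.47). Rank 14, whose ID shares its component number but not its component with rank 19, had 251, 189 and 254 CPM in AdOx and 368, 355 and 422 CPM in control. Among the 12 members above 100 CPM the median ratio was 1.42, and apart from rank 1 the highest was 1.65.

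The 3 least abundant members were ranked 42, 37 and 24. Rank 42 had 26, 23 and 26 counts in AdOx and 56, 39 and 49 in control. Rank 37 had 14, 19 and 27 counts in AdOx and 73, 41 and 49 in control, and rank 24 had 31, 20 and 24 against 61, 51 and 47. At such counts the gap, as defined here, was close in size to counting error. For these 3 it was 0.35, 0.36 and 0.41 on the log2 scale, with counting standard errors of 0.37, 0.36 and 0.33. The counting standard error, taken from the counts of the closest AdOx and control libraries, covers sampling of reads only. It leaves out the amount added to CPM before the log. That amount shrinks the gap of rare contigs, so for them the comparison is too strict. Over all members, the gap exceeded 2 times that error in 55 of 100. It did so in all 32 members of at least 20 CPM and in 0 of the 28 members under 5 CPM. The count of 0 rests in part on the added amount. Rank 20, at a mean of 4.77 CPM, fell short only narrowly, with a gap of 0.446 and an error of 0.224. Counting error was largest among the rarest members, whose place in the set is the least firm at this depth.

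**Figure D3:**
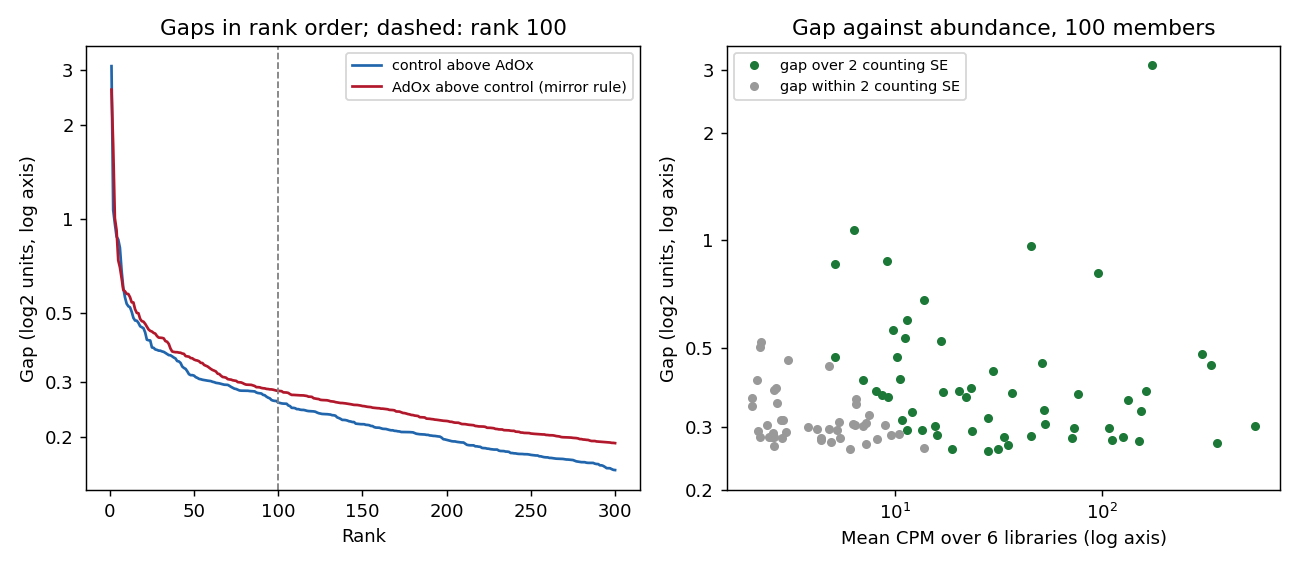
Left, the gap (log2 units, log axis) of the 300 contigs with the widest downward gaps (blue) and of the 300 with the widest gaps in the mirror direction (red), by rank; at rank 100 the curves are at 0.26 and 0.28. Right, the gap of each member against its mean CPM (both on log axes), green where it exceeds 2 counting standard errors (55 members) and grey where it does not. The gap includes the amount added to CPM and the error does not, which is too strict for rare members.

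Within each group the members varied less than other contigs, which the choice by gap favours. The median SD of log2 values was 0.097 among AdOx libraries and 0.096 among control libraries, against 0.142 and 0.132 over all kept contigs. The library that limited the gap differed from member to member. Control replicate 2 was the lowest control library in 42 members, control replicate 1 in 31 and control replicate 3 in 27. Over all contigs separated downward the shares were similar, at 44.4%, 25.7% and 30.0% in the same order. AdOx replicate 3 was the highest AdOx library in 39 members, AdOx replicate 1 in 36 and AdOx replicate 2 in 25, against 44.4%, 33.0% and 22.6%. AdOx replicate 2 was most often the lowest AdOx library, in 46 members, and in 52.7% of all contigs separated downward.

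The same contrast was read with a test fitted over all contigs, as a description, since the members were chosen on it. Under the quasi-likelihood test of edgeR, with Benjamini-Hochberg adjustment over 38728 contigs, 26 contigs (0.0671%) were lower in AdOx at an adjusted p under 0.05, and 25 of these were members. The other contig was separated downward but fell under the filter of 2 CPM. Ranks 1 to 11 all passed. Of ranks 1 to 50, 24 passed, and of ranks 51 to 100 only rank 67. The edgeR log2 fold change of rank 1 was -3.97 (SE 0.23, adjusted p = 3.22e-07) and that of rank 2 was -1.45 (SE 0.14, adjusted p = 0.000132). The smallest fall that passed was 1.41-fold. Members that passed had a median of 13.8 CPM and those that did not a median of 6.97 CPM. This number rested on the libraries: leaving out AdOx replicate 1, 2 or 3 gave 7, 45 or 16 members, leaving out control replicate 1 gave 15 and leaving out control replicate 3 gave 6, while the share of all contigs called lower ran from 0.0154% to 0.178%. With DESeq2's Wald test 49 members had an adjusted p under 0.05 (against 0.471% of the contigs to which DESeq2 gave an adjusted p), and 33 members had none. With the replicate number as a block in edgeR, 83 members passed, and 1.18% of all contigs were called lower. The labels do not tie that number to a batch.

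The authors' deposited table lists 89 contigs as lower in AdOx, all of them among the 28064 kept contigs. Of these 89, 25 are members, which is 28.1% of the listed falls and 25.0% of the members. No member is listed as higher in the authors' deposited table. Its name speaks of 2 replicates, and which libraries these were is not stated, whereas the values here rest on 3 libraries a group. It comes from the same study, so the overlap is no independent reading. The listed members had a median of 96.2 CPM against 6.42 CPM for the members not listed, although the 2 sets overlapped in abundance (the rarest listed member was at 9.08 CPM), and 6 of ranks 1 to 10 were listed. In the authors' deposited table rank 1 had a log2 fold change of -4.28 and rank 3 of -1.81, and the median of the 25 was -0.74. Of the 64 listed falls outside the set, 42 were separated downward with narrower gaps and 22 were not separated. In all 22, control replicate 1 was the lowest control library, and in 19 of them AdOx replicate 2 was the highest AdOx library. Among all contigs separated downward, control replicate 1 was the lowest control library in 25.7% and AdOx replicate 2 the highest AdOx library in 22.6%. Whether the authors' comparison left out these 2 libraries was not tested.

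The 100 members came from 82 components, counting the contigs with a read in any library. In 66 components there was 1 member, in 14 there were 2 and in 2 there were 3. A contig that was alone in its component made up 39 of the members, against 24.6% of the kept contigs, and members in components of 10 or more contigs numbered 13, against 19.2% of the kept contigs. Contigs of 1 component may share reads, so members of the same component are not separate observations. In the 16 components with more than 1 member, the log2 differences of those members lay within 0.014 to 0.30 of each other, with a median spread of 0.045.

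There were 2 components with 3 members. In the first, of 4 contigs, the members were ranked 32, 55 and 99 and fell by 32.6%, 23.0% and 27.0%. Rank 32 had 31.0, 25.8 and 31.4 CPM in AdOx and 43.9, 40.8 and 46.1 CPM in control, and rank 55 had 7.72, 7.62 and 7.92 CPM and 10.3, 9.90 and 10.0 CPM. Together with rank 99 they took 89.1% ± 0.747 of the component's counts in AdOx and 89.6% ± 0.760 in control (SD, n = 3), a difference smaller than the spread between libraries. The second component had 22 contigs, and its members, ranked 48, 72 and 81, were rare and fell by 35.9%, 37.1% and 35.1%. Rank 48 had 2.12, 2.05 and 2.48 CPM in AdOx and 3.48, 3.21 and 3.69 CPM in control. Rank 72 had 2.36, 1.60 and 1.95 CPM and 2.99, 3.10 and 3.30 CPM, and rank 81 had 2.18, 1.67 and 2.25 CPM and 3.09, 2.84 and 3.47 CPM. Their joint share of that component was 16.2% ± 0.568 in control and 12.8% ± 0.256 in AdOx (SD, n = 3), without overlap between the groups. A lower share in AdOx is favoured by the choice of the members. In 23 of the 36 components whose other contigs summed to at least 2 CPM, the share was lower in every AdOx library than in every control library. No count over other components stands beside this, so it is a description only.

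Contigs that share a component with a member, and were not themselves chosen, were mostly lower as well. There were 185 such mates of at least 2 CPM in 34 components. Of these, 154 (83.2%) had a lower mean log2 value in AdOx, against 45.4% of all kept contigs, and 63 (34.1%) were separated downward, against the 5.66% given above. Their median log2 difference was -0.19. Components of 10 or more contigs held 66.5% of the mates, so the counts lean on a few large components. Counted once per component, by summing the other contigs, 32 of 36 components were lower in AdOx, 21 of them with all control libraries above all AdOx libraries. In 42 of the 82 components no other contig had a read, so the component total is the members' own. In the other 40 the total of all contigs, which still holds the members, was separated downward in 28, where 6.30% of all component totals of at least 2 CPM were. How far shared reads set these values was not tested.

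In some components the member fell while the rest did not. The other contigs were not lower in 4 of the 36 components. The widest contrast was in the component of rank 74, which has 2 contigs. Rank 74 had 8.08, 8.20 and 7.33 CPM in AdOx and 10.1, 11.8 and 11.7 CPM in control, whereas its mate had 75.9, 50.7 and 34.7 CPM in AdOx and 14.0, 28.3 and 22.4 CPM in control. No AdOx library overlapped a control library in either contig, in opposite directions, and the member's share of the component went from 35.2% ± 6.34 in control to 13.7% ± 3.92 in AdOx (SD, n = 3). In the edgeR fit over all contigs the adjusted p was 0.171 for rank 74, which was not called, and 0.0448 for its mate. This component was picked after its values were seen, and the change in share was not tested.

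A component of 14 contigs held ranks 34 and 41. Rank 34 had 6.37, 7.69 and 6.85 CPM in AdOx and 10.4, 10.2 and 10.1 CPM in control, and rank 41 had 4.66, 5.06 and 5.73 CPM and 7.90, 7.44 and 7.93 CPM. The other 12 contigs summed to 42.0, 42.2 and 44.2 CPM in AdOx and 37.5, 38.0 and 34.2 CPM in control. The component's total was thus level, with a log2 difference of 0.01, while the share of the pair of members was 33.0% ± 1.41 in control and 22.1% ± 1.20 in AdOx (SD, n = 3). For the contig ranked 3, with 1 mate, the mate had 6.48, 5.51 and 7.86 CPM in AdOx and 8.49, 6.26 and 7.93 CPM in control, so that the groups overlapped in the mate and not in the member.

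**Figure D4:**
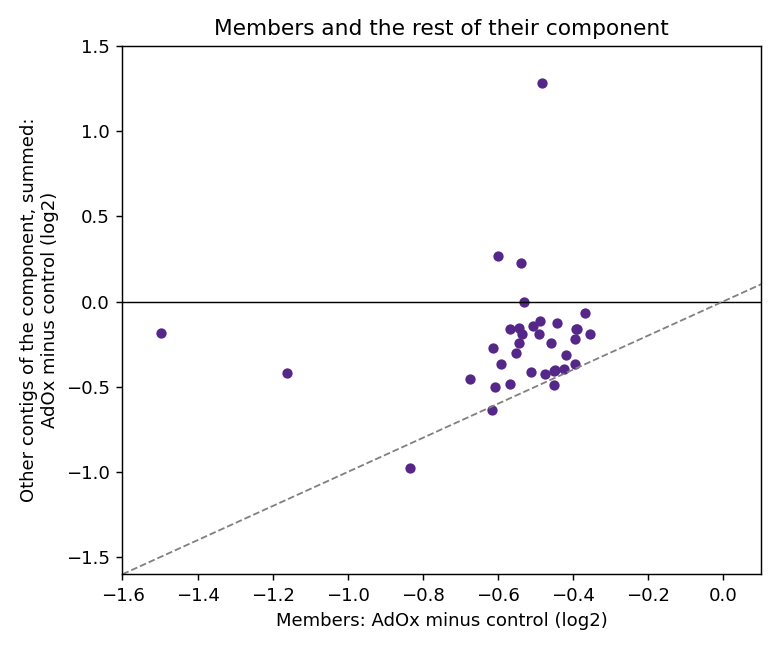
Each point is 1 of the 36 components whose other contigs summed to at least 2 CPM, with the log2 difference of its members (the median, where there are several) on the x axis and that of the other contigs summed on the y axis; the dashed line marks equal differences. Of the 36 points, 32 lie below 0 on the y axis, and the highest, at 1.28, is the component of rank 74.

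Libraries that took no part in a choice were read next. The same rule was run on the 4 libraries of 2 replicate numbers, and the 100 contigs it took were read in the AdOx and control libraries of the number left out. Taken without number 1, 88 of 100 contigs had less in the AdOx library numbered 1 than in the control library of that number, against 51.3% of all kept contigs. Without number 2, 90 were lower in the AdOx library left out than in the control library left out, against 49.4%. The number only sets which libraries were left out together, and nothing in the labels ties them. Without number 3, 73 were lower, against 38.8%.

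The size of the difference shrank in the libraries left out. For the choice without number 1 the median log2 difference was -0.59 in the 4 libraries of the choice and -0.42 in the 2 left out. Without number 2 it was -0.60 and -0.45, and without number 3 it was -0.60 and -0.21. Over all kept contigs the libraries left out had medians of -0.01, 0.00 and 0.06. These 3 sets are not the members, with which they share 53, 47 and 37 contigs. With 1 library a group in each reading there is no test, and the readings share libraries with each other's choices.

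**Figure D5:**
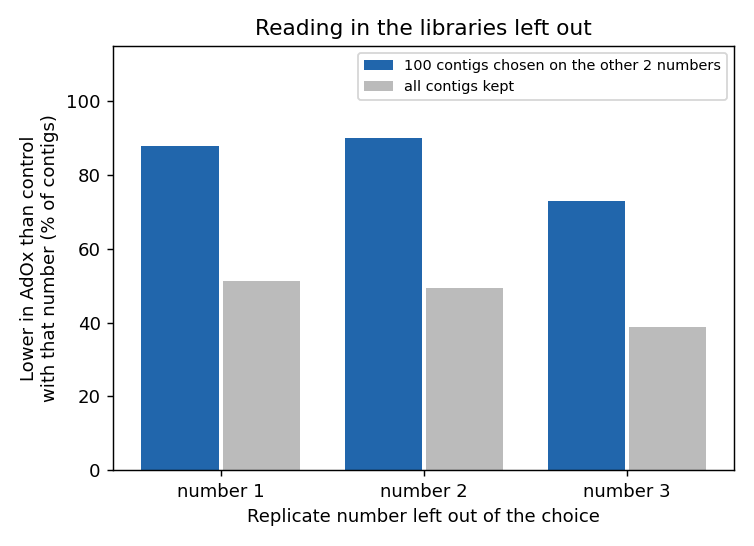
Bars give the percentage of contigs lower in the AdOx than in the control library of the number left out of the choice, for the 100 contigs chosen on the other 2 replicate numbers (blue) and for all kept contigs (grey). The blue bars stand at 88%, 90% and 73% and the grey bars at 51.3%, 49.4% and 38.8%.

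How many of the members hold their place depends on which library is left out. With the rule run on 5 libraries, the 100 contigs taken included 56, 66 or 44 members when AdOx replicate 1, 2 or 3 was the one left out, and 70, 56 or 61 members when it was control replicate 1, 2 or 3. In all, 37 members were taken whichever library was left out, and these included ranks 1 to 23. Of the contigs chosen on each of the 3 sets of 4 libraries, 26 were common to all 3, ranks 1 to 24 with ranks 31 and 33. That all 26 are members follows from the rule and is no separate reading. The control and AdOx libraries that set a contig's gap lie together in at least 1 of the 3 sets. The gap cutoffs of those sets were 0.36, 0.39 and 0.40, against 0.26 for the members.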

How the data were processed

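RNA-seq libraries of whole planarians, 3 AdOx and 3 control, were grouped by their sample titles. The deposited files hold raw counts of reads per contig and list contigs with at least 1 read, so a missing contig was taken as 0. Per the submitters' processing notes, Bowtie2 2.2.3 and DESeq2 were used; the sources used here do not give the transcriptome, the counting of reads that match several contigs or the use of strand. The authors' deposited table gives log2 fold changes with standard errors, p-values and 2 score columns (mean normalized count, Wald statistic).

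CPM used library totals. Contigs were tested with edgeR 4.0.16 in R 4.3.3 (filterByExpr with minimum count 10 and minimum total 15, TMM factors, glmQLFit and glmQLFTest on the group, two-sided), checked on simulated data. The standard error was the absolute log2 fold change divided by the square root of F. DESeq2 1.42.0 was an alternative, as were other scalings, filters, pseudocounts, a replicate block and leaving out libraries. Per-library values are given for ranks 1 to 10, the 3 most and 3 least abundant members, the components with most members and the ranks beside the threshold; those of rank 14, ranks 34 and 41, rank 74 and the mate of rank 3 were added after their values were seen. The members and these choices were made with earlier results of these data known. No gene list could be matched to the contig IDs, and no sequence is printed.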

Additional observations from a re-analysis of the deposited data

How the results depend on the processing

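Of the 64 alternative values computed, 41 stayed within a limit and 23 did not. The limit was 1.5 times for a count, and the spread between libraries or readings for other values. Only the median log2 differences of members and mates were checked for a change of sign, and none changed. For the members the rule had largely set that sign in advance. The 25 members lower by edgeR (0.0671% of all contigs tested) were 49 with DESeq2's Wald test (0.471% of contigs with an adjusted p). At an adjusted p under 0.01 in edgeR they were 8 (0.0207% of all contigs), and at 0.1 they were 39 (0.119%). With a library left out they were from 6 to 45 (0.0154% to 0.178%). Other scalings and filters gave 25 to 30 (0.0671% to 0.0754%). The 100 members kept by the rule were 52 when contigs were ranked by the difference of group means, from 44 to 70 with a library left out and from 72 to 93 under other pseudocounts, scaling and filters. The contigs separated downward numbered from 2263 to 3757 with a library left out. The members' median log2 difference of -0.54 was -0.57 with a pseudocount of 0.1, -0.43 with 2 and -0.45 on component totals (members included), and the reading without number 3 was 85.0% lower with a pseudocount of 2. A pseudocount of 2 shrinks the differences of rare contigs by construction; the cause of the other shifts was not tested. Leaving out a library moved the median only between -0.55 and -0.51. Depth limits the members under 5 CPM most. With the replicate number as a block edgeR called 83 members lower, and 1.18% of all contigs against 0.0671% without it, so the rise was not limited to the members. Deviations from the group mean correlated between AdOx and control libraries of the same number at 0.094, 0.33 and 0.13 (numbers 1, 2 and 3). Number 1 lay under the limit of 0.1 set for this, and numbers 2 and 3 lay above it. Because the labels do not tie the number to a batch, the block was kept as an alternative. The cell type marker and gene list readings could not be made without gene names.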
